A study of Mus musculus with 77 samples.

Results

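The Ndc80 complex was described here by its 4 genes, *Spc25*, *Spc24*, *Ndc80* and *Nuf2*, in the retinas of 77 mice with oxygen-induced retinopathy (OIR) or without it. The members were all probes that are not controls and whose transcript belongs to one of these genes, 5 of 55681 probes and 4 of the 21154 genes with a symbol. *Spc25* was selected on its fall in OIR mice on P17 in these same arrays, so that every value of *Spc25* in which P17 mice take part is a description without a test, and its partners were added as the rest of the complex. The C57BL/6 litters were kept in 75% oxygen (OIR) or in 21% oxygen (control) from P7 to P12. Retinas were taken on P12, or on P17 or P28 after a return to room air. The OIR group held 13 mice at each age, and the control group held 12 mice on P12, 12 on P17 and 14 on P28. Both retinas of a mouse were pooled on 1 two-color array together with universal mouse reference RNA. Whole litters were assigned to an oxygen level, several to each. The litter of a mouse is not given, so littermates could not be identified and mice were treated as independent.

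The Ndc80 complex is the part of the kinetochore that holds the ends of spindle microtubules during mitosis. *Ndc80* and *Nuf2* form the end of the rod that contacts the microtubule, and *Spc24* and *Spc25* form the opposite end, which docks on the inner kinetochore. Each subunit is needed for a stable complex, and the genes are usually transcribed in dividing cells. In the mouse retina, the production of new neurons has ended by the ages studied here, whereas the vessels, which regress in hyperoxia and later regrow, hold dividing endothelial cells during OIR.

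The promoters of these genes are shown first, since genes of the mitotic kinetochore often share short motifs near their start. RefSeq (GRCm38.p6) gave a promoter of 300 bases, from 250 before to 50 after the start, for *Spc25*, *Ndc80* and *Nuf2*, and the promoters of *Spc25* and of *Ndc80*, the partner most often above background, are printed. Capitals mark the letters CCAAT, the CCAAT box, and TTTGAA, a form of the cell cycle homology region, on either strand.
Spc25, chr2:69206164-69206463, minus strand: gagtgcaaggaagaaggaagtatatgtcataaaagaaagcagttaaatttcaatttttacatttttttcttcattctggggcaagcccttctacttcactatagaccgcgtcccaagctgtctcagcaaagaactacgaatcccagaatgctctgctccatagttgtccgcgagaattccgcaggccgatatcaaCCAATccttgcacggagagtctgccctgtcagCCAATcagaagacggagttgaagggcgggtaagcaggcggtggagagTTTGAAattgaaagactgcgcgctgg
Ndc80, chr17:71526808-71527107, minus strand: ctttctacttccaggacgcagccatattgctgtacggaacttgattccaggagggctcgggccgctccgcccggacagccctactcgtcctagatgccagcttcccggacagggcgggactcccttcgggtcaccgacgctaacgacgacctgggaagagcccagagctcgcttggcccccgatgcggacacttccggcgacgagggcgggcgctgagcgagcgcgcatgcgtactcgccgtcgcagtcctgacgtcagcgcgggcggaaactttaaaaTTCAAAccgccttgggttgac
The *Spc25* promoter held 2 CCAAT boxes, at -55 and -23 from the start, and TTTGAA at 24 bases after it. CCAAT was found in 37.9% and TTTGAA in 18.1% of 27025 promoters of this length. The *Ndc80* promoter held TTTGAA on the opposite strand, 29 bases after the start, and no CCAAT. In the *Nuf2* promoter, at chr1:169531415-169531714, none of the searched letters occurred. The others were TTCGAA (1.57% of promoters), the E2F forms TTTGGCGC, TTTCCCGC, TTTGCCGC and TTTCGCGC (any of them in 2.32%), and TAATCC, bound by the photoreceptor factor CRX (7.16%), all on both strands. None of these was found in the 3 promoters, and no motif searched for overlaps another. A match is a matter of letters and was not tested as a site.

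All values are the log2 ratio of retina over reference, so that 0 stands for equal signal of both RNAs and 1 unit for a doubling. According to the labels the retina carried Cy5, but rod genes were brighter in Cy3 on all 77 arrays. The smallest log2 difference of Cy3 over Cy5 was 4.46 for *Gnat1*, 4.18 for *Sag* and 2.81 for *Nr2e3*, and the retina was therefore taken to be in Cy3, against the labels. A probe was called changed at an adjusted *p* under 0.05, by limma with the Benjamini-Hochberg method over all 55681 probes. The arrays lay on 11 slides that were scanned on 4 days. The last scan day held 32 arrays on which 20882 to 34297 probes were clearly above background in the retina (as the scanner software judges it), compared with 13739 to 24691 on the 45 arrays of the other days. It also held 11 of 13 OIR and 9 of 14 control mice of P28, so that day of life and scan day overlap in part. Values within a scan day are given beside most of the *Spc25* and *Ndc80* comparisons.

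*Spc25*, measured by 1 probe for the transcript NM_001199123, was well above background in both channels on all 77 arrays and never saturated. In control mice it had a lowest, median and highest log2 ratio of -0.25, 0.35 and 1.36 on P12, of 1.22, 1.49 and 2.19 on P17, and of 1.55, 2.47 and 2.94 on P28. In OIR mice the corresponding values were -0.56, 0.16 and 0.64 at P12, -0.84, 0.0034 and 0.59 at P17, and 1.22, 2.12 and 2.69 at P28. The control retina therefore gained *Spc25* signal at each later day, whereas the OIR retinas of P17 overlapped those of P12, with some mice lower still, and those of P28 overlapped the controls of that day.

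**Figure D1:**
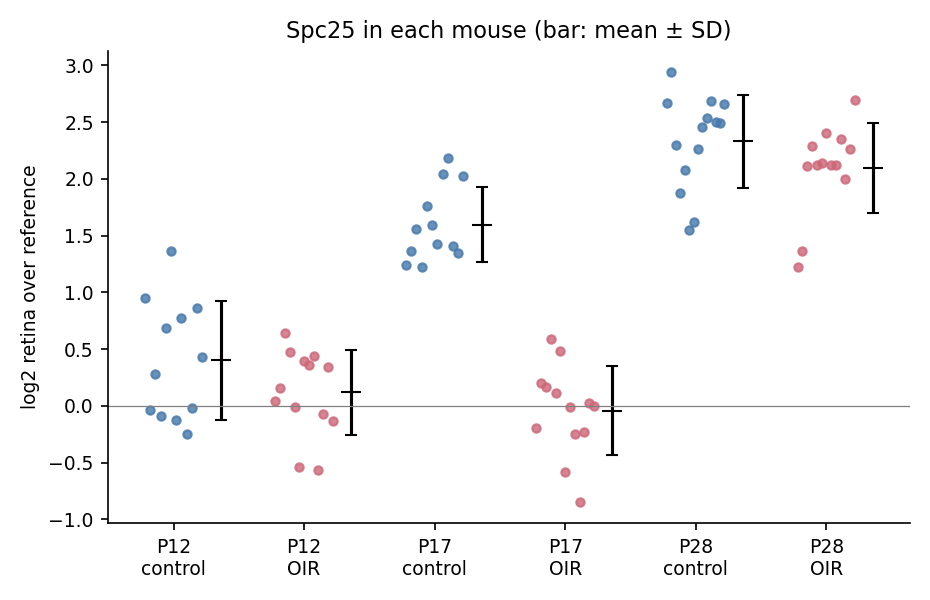
Log2 ratio of retina over reference of *Spc25* in each mouse, by day and group, with the mean and SD of each group as a black bar. The 13 OIR mice of P17 lie between -0.84 and 0.59, below all 12 control mice of the same day, which start at 1.22, whereas the groups overlap on P12 and on P28.

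On P17, the OIR mice had a mean *Spc25* ratio of -0.04 ± 0.39 (SD, n = 13), and the control mice one of 1.60 ± 0.33 (SD, n = 12). The groups did not overlap, as the highest OIR mouse was at 0.59 and the lowest control mouse at 1.22. How many of all probes had no overlap was not counted. The difference of -1.64 ± 0.14 (SE) on the log2 scale, 3.11-fold, was the most negative of all 55681 probes, which is how the gene was chosen. In this comparison 1.13% of all probes were called. The median retina signal was 6066 in OIR and 19889 in control mice, while the median reference signal was 6132 and 6551, so the difference lay in the retina channel. The reference channel alone differed by 0.02 on the log2 scale. Since whole retinas were measured, fewer cells that express the gene and less RNA per cell cannot be told apart.

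The fall on P17 was present wherever OIR and control mice shared a slide or a scan day. These are the arrays on which *Spc25* was chosen, so the values only describe them. On 6 of 6 slides with both groups, the OIR mean was lower, by -2.10 to -1.36 with a median of -1.52. Within scan days, the difference was -1.57 (5 OIR and 3 control mice), -1.62 (6 and 3) and -1.52 (2 and 5). The size was thus alike on the bright arrays of the last scan day and on the dimmer arrays before it.

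**Figure D2:**
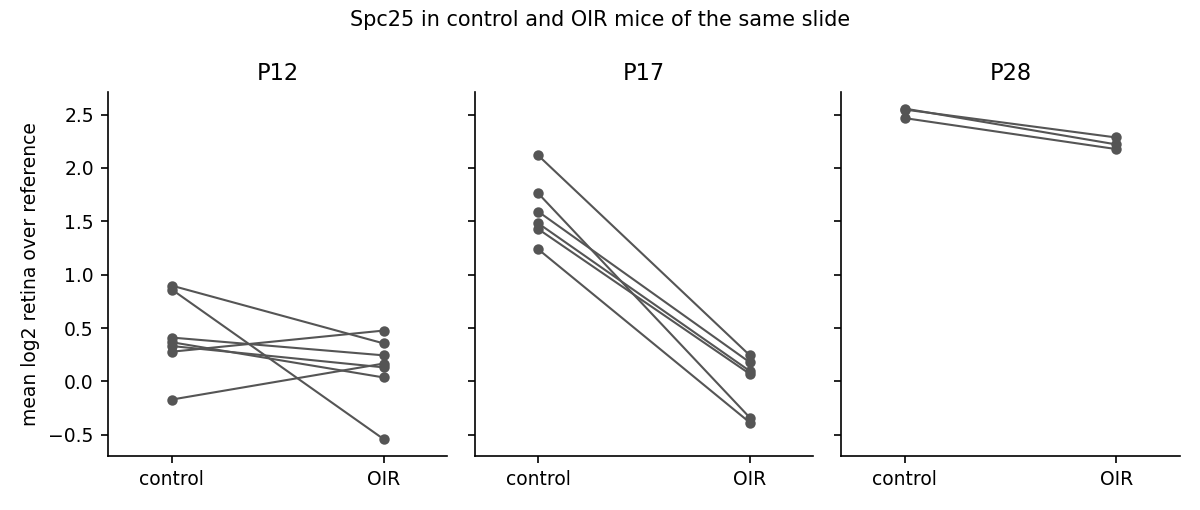
Mean log2 ratio of *Spc25* in control and OIR mice that shared a slide, with 1 line per slide, on P12 (7 slides), P17 (6 slides) and P28 (3 slides). All 6 lines go down on P17, with differences of -2.10 to -1.36, whereas 5 of 7 go down on P12 and the 3 lines of P28 go down with differences of -0.34 to -0.26.

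On the other days, which took no part in the choice of the gene, *Spc25* did not pass the test. On P12, directly after hyperoxia, the OIR mean was 0.12 ± 0.38 (SD, n = 13) and the control mean 0.40 ± 0.52 (SD, n = 12). The difference of -0.28 had a 95% interval of -0.64 to 0.08 and an adjusted *p* of 0.9997 by limma, in a comparison that called 0.0233% of probes. Within scan days the P12 difference was -0.29, -0.23 and -0.27. On P28 the OIR mean was 2.09 ± 0.40 (SD, n = 13) and the control mean 2.33 ± 0.41 (SD, n = 14). This difference, -0.24 with an interval of -0.55 to 0.07, had an adjusted *p* of 0.699 by limma, and 0.0611% of probes were called. Of the OIR mice of P28, 12 of 13 were below the control median. Within the last scan day the difference on P28 was -0.34 (11 OIR and 9 control mice). The change of the OIR effect was -1.36 ± 0.23 (SE) from P12 to P17 and 1.40 ± 0.22 (SE) from P17 to P28, both descriptive, with 0.48% and 0.278% of probes called.

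The rise of *Spc25* with age was tested on the P12 and P28 mice only, a comparison added after the data had been seen. In control mice *Spc25* rose by 1.93 ± 0.18 (SE), 3.81-fold, with an adjusted *p* of 1.44e-08 by limma, and 23.8% of all probes were called. All 14 control mice of P28 were above the highest control mouse of P12, and only 9 probes rose more. In OIR mice the rise was 1.97 ± 0.15 (SE), with an adjusted *p* of 3.67e-10 by limma and 37% of probes called. All 13 OIR mice of P28 were above the highest OIR mouse of P12. How many of all probes separated P12 from P28 this fully was not counted in either group. The difference between the rises of the OIR and control mice was not tested.

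The rise was also present among mice of the same scan day. Among control mice, P28 lay above P12 by 1.65 on one scan day (5 and 5 mice) and by 1.89 on the last one (9 and 3), and the lowest P28 mouse was above the highest P12 mouse on both. Among OIR mice, the differences were 1.27 (1 and 5 mice), 1.06 (1 and 1) and 1.82 (11 and 2). With scan day as a block, the rise was 1.76 in control mice (adjusted *p* = 6.94e-08 by limma) and 1.54 in OIR mice (adjusted *p* = 4.78e-06 by limma). With slide as a block it was 1.68 and 1.33. Within days the lowest P28 mice were those scanned earlier: the OIR mice at 1.22 and 1.37 were the pair of that group not on the last scan day.

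The course between these days differed, as far as values with P17 mice can be described. In control mice *Spc25* was higher by 1.20 ± 0.16 (SE) on P17 than on P12, and by another 0.73 ± 0.16 on P28. In OIR mice it was lower by -0.16 ± 0.16 on P17 than on P12 and then higher by 2.13 ± 0.16 on P28. Among mice of 1 scan day, the control step from P17 to P28 was 0.29 (5 and 3 mice) and, on the last scan day, 0.81 (9 and 5). On slides that held both days it was positive on 4 of 6 slides, from -0.14 to 1.24. The control step from P12 to P17 was 1.01, 1.36 and 1.07 within scan days. In OIR mice, the within-day values were -0.26, -0.04 and -0.17 from P12 to P17, and 1.53 (1 and 5 mice) and 1.995 (11 and 2) from P17 to P28. Of the 12 control mice of P12, 7 were above the median of the OIR mice of P17. Ordered by their means, the groups ran from OIR P17 over OIR P12, control P12 and control P17 to OIR P28 and control P28. Neighbors in this order overlapped throughout, the least at the step from control P12 to control P17, where 8 of 12 mice of P17 were above the highest mouse of P12. In the day comparisons with P17, 1.28% (control, P12 to P17), 13.4% (control, P17 to P28), 3.43% (OIR, P12 to P17) and 40.6% (OIR, P17 to P28) of probes were called.

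The partner subunits gave little retina signal. *Ndc80*, the microtubule-binding subunit, was well above background in the retina channel on 15 of 77 arrays, *Spc24*, the direct partner of *Spc25* in the complex, on 2, and the brighter *Nuf2* probe on 7. In the reference RNA the same probes were well above background on 75, 76 and 75 arrays, so the probes gave signal in that RNA. The other *Nuf2* probe (A_55_P2174704) was above background on 1 array in the retina and on none in the reference, and no difference is given for it. *Ndc80* was above background in 3 OIR and 4 control mice of P12, in 3 and 1 of P17, and in 3 and 1 of P28. *Spc24* was so only in 1 OIR mouse on P17 and 1 on P28, and *Nuf2* only in 3 OIR and 4 control mice on P28. Where a probe is below background, its ratio is held near a floor, and a fall of the size seen for *Spc25* could not have been measured.

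**Figure D3:**
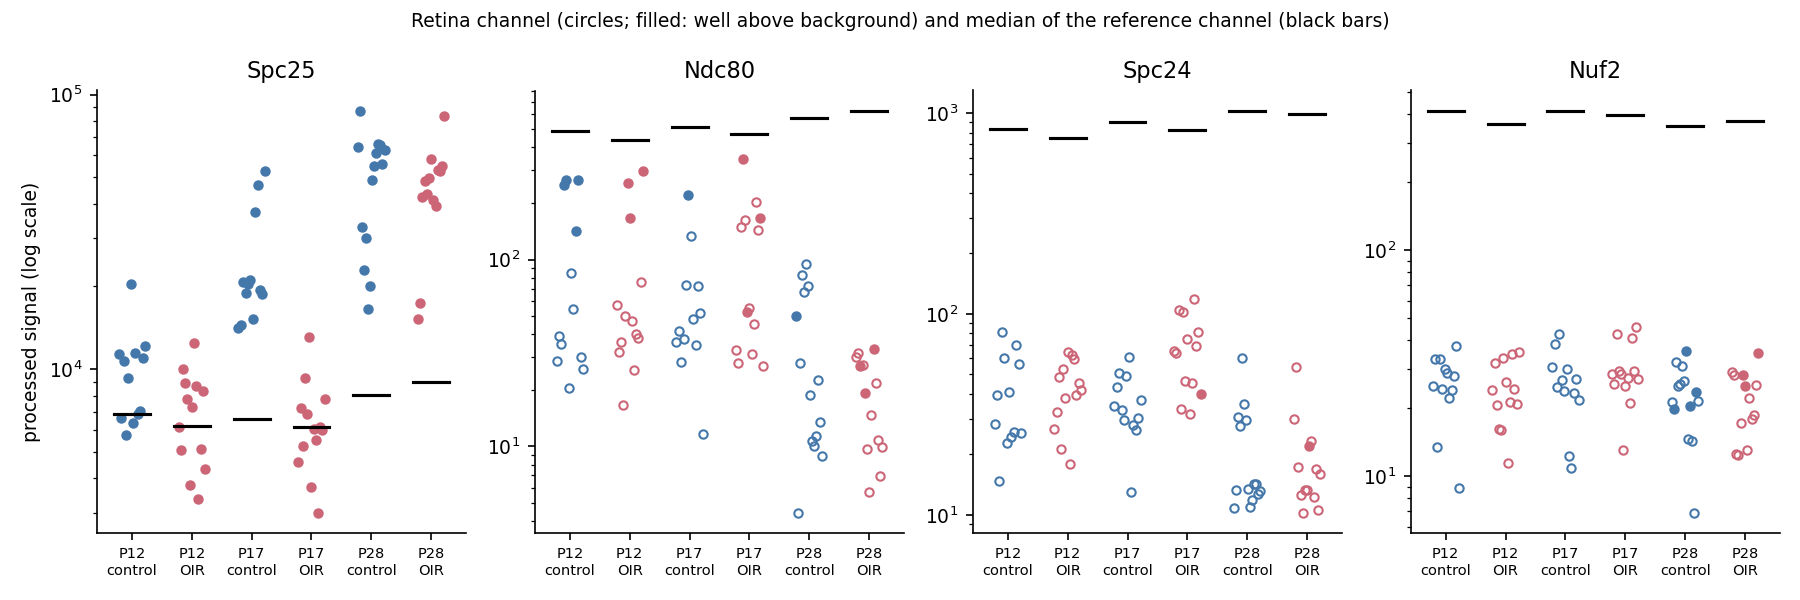
Processed retina signal of each mouse on a log scale (circles, filled where well above background) and the group medians of the reference signal (black bars) for *Spc25*, *Ndc80*, *Spc24* and the brighter *Nuf2* probe; each panel has its own scale. *Spc25* is filled on all 77 arrays, *Ndc80* on 15, *Nuf2* on 7 and *Spc24* on 2.

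None of the 4 partner probes was called between OIR and control mice on P12, P17 or P28, beside 0.0233%, 1.13% and 0.0611% of all probes. For *Ndc80* on P17, the lowest, median and highest ratio was -0.99, -0.37 and -0.12 in OIR and -1.39, -0.59 and -0.19 in control mice. The ranges of the groups overlapped, and only 2 of 13 OIR mice were below the control median. The difference of 0.22 had a 95% interval of -0.04 to 0.48 and an adjusted *p* of 0.563 by limma, so that its sign was opposite to that of *Spc25*. Within scan days it was 0.06, 0.10 and 0.09. On P12 *Ndc80* differed by 0.07 (interval -0.18 to 0.33), a sign that turned with slide or scan day as a block, and on P28 by -0.24 (interval -0.53 to 0.05, adjusted *p* = 0.690 by limma), or -0.16 within the last scan day.

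For *Spc24* on P17, the OIR mice had a mean ratio of -0.82 ± 0.28 (SD, n = 13) and the control mice of -1.04 ± 0.46 (SD, n = 12), with an adjusted *p* of 0.619 by limma. The control mice, and 12 of 13 OIR mice, were below background, and no fold change is given. The *Nuf2* mean on P17 was -0.54 ± 0.14 (SD, n = 13) with OIR and -0.64 ± 0.26 (SD, n = 12) without, adjusted *p* = 0.672 by limma, with all mice below background. On P28 most mice of both groups were still below background for *Nuf2*, which was not called (adjusted *p* = 0.713 by limma). No partner probe was called for a change of the OIR effect between days, in either step.

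With age the partners did not rise with *Spc25*. From P12 to P28, where 23.8% of probes were called in control and 37% in OIR mice, *Ndc80* fell by 0.37 ± 0.12 (SE) in control mice (adjusted *p* = 0.025 by limma) and by 0.69 ± 0.14 (SE) in OIR mice (adjusted *p* = 0.000547 by limma). *Spc24* was also called lower, with adjusted *p* of 0.00983 in control and 0.00124 in OIR mice by limma, but *Nuf2* was not. Of these mice only 1, an OIR mouse of P28, was above background for *Spc24*. A fall of its retina RNA can therefore not be read from the call. From P17 to P28 in OIR mice, where 40.6% of probes were called, *Ndc80*, *Spc24* and *Nuf2* were called lower, *Ndc80* by -0.75 ± 0.13 (SE, adjusted *p* = 5.23e-06 by limma). *Ndc80* was also mostly below background. It was above background in 3 of 13 OIR mice on each day. In control mice this was so in 4 of 12 on P12 and 1 of 14 on P28. Its sizes therefore mostly compare values near the floor. For *Spc24* and *Nuf2*, also below background in most mice, no size is given. None of the 4 partner probes was called in the other 3 steps between neighboring days.

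These falls moved with the scan day. Over all groups, the median ratio of *Ndc80* was -1.19 on the 32 arrays of the last scan day and -0.43 on the other 45, and that of *Spc24* was -1.67 and -0.79. The control mice of P12 on the last scan day had a mean *Ndc80* ratio of -0.99, and those of P28 on the scan day before it -0.54, against the order of the ages. Within these scan days *Ndc80* of control mice was lower on P28 by -0.19 and -0.11. With scan day or slide as a block, 0 of the 4 partner probes were called from P12 to P28 in either group, and 2 from P17 to P28 in OIR mice with scan day as a block (*Ndc80* by -0.34, adjusted *p* = 0.000957 by limma, and *Spc24*). How much of the partners' fall belongs to age was not tested.

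**Figure D4:**
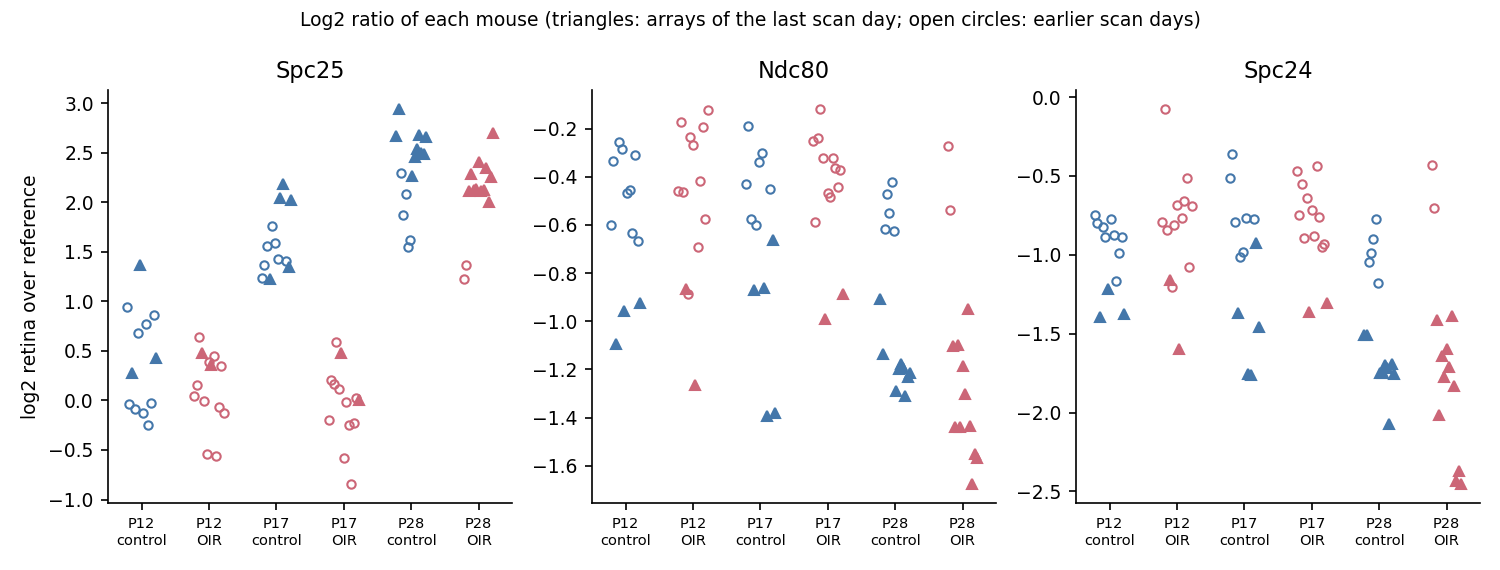
Log2 ratio of retina over reference in each mouse for *Spc25*, *Ndc80* and *Spc24*, with triangles for the 32 arrays of the last scan day and open circles for the other 45. For *Ndc80* and *Spc24* the triangles lie lower than most circles of the same group, with a median of -1.19 against -0.43 for *Ndc80*, whereas *Spc25* separates the P17 groups among triangles and circles alike.

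The wider machinery of cell division was read from lists of 40 further kinetochore genes and 25 proliferation genes, of which 33 and 22 were well above background in at least 50% of the mice of a group. None of the 65 was called between OIR and control mice on any day. Of all genes, 0.06% were called on P12, 2.29% on P17 and 0.14% on P28. At such shares a list of this size would hold few called genes or none. On P17 the median difference was 0.12 for the kinetochore genes and 0.23 for the proliferation genes, compared with -0.0026 over all 21154 genes. *Mki67*, a marker of cycling cells, differed by 0.86 ± 0.31 (SE, adjusted *p* = 0.271 by limma) and *Top2a*, a topoisomerase of dividing cells, by 0.23 ± 0.23 (SE, adjusted *p* = 0.736 by limma). The medians were 0.11 and 0.16 on P12, and -0.14 and -0.17 on P28. By part, the 6 other genes of the KMN network, to which the Ndc80 complex belongs, had a P17 median of 0.20. It was 0.12 for the 14 inner kinetochore genes and 0.09 for the 9 outer kinetochore genes. The 7 spindle checkpoint genes had a median of 0.06 and the 4 genes of the chromosomal passenger complex 0.24. All of these P17 medians were of the opposite sign to *Spc25*. The last scan day held 2 of 13 OIR and 5 of 12 control mice of P17. The part of scan day in these P17 values was not tested.

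From P12 to P28 in control mice, 39 of the 65 genes were called lower and 4 higher. Among the proliferation genes 19 fell, such as *Rrm2*, which makes deoxyribonucleotides, by -1.45, *Mki67* by -1.36 and *Ccnb1*, a mitotic cyclin, by -1.14, and *Pcna*, the replication clamp, rose by 0.33. Of the kinetochore genes 20 fell and 3 rose. Over all genes 3748 rose and 3174 fell. With scan day as a block 24 of the 65 genes were lower and 3 higher, beside 8375 of all 55681 probes called. *Mki67* then fell by -0.64, *Rrm2* by -0.73 and *Ccnb1* by -0.53 (adjusted *p* = 0.00138, 0.000348 and 0.00571 by limma), while *Pcna* was no longer called (0.20, adjusted *p* = 0.226 by limma). In OIR mice 48 of the 65 were lower and 5 higher, beside 4275 lower and 5617 higher of all 21154 genes. With scan day as a block this became 4 and 2, beside 3369 of all probes called.

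*Spag5*, a spindle and kinetochore protein, was the list gene that rose most from P12 to P28 in control mice. It rose by 1.05 ± 0.10 (SE, adjusted *p* = 2.33e-08 by limma) in control and by 0.72 ± 0.13 (SE, adjusted *p* = 0.000165 by limma) in OIR mice, and by 1.19 and 0.84 with scan day as a block. From P12 to P17 it rose by 0.76 in control and 0.66 in OIR mice (adjusted *p* = 2.76e-06 and 7.86e-06 by limma). On P17 it differed between OIR and control mice by 0.03 ± 0.08 (SE, adjusted *p* = 0.905 by limma). *Spag5* therefore shared the rise of *Spc25* with age, and its P17 value was close to 0, unlike that of *Spc25*. *Zw10* and *Cenpc1*, the other kinetochore genes called higher in control mice, rose by 0.39 and 0.23 and were not called with scan day as a block.

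**Figure D5:**
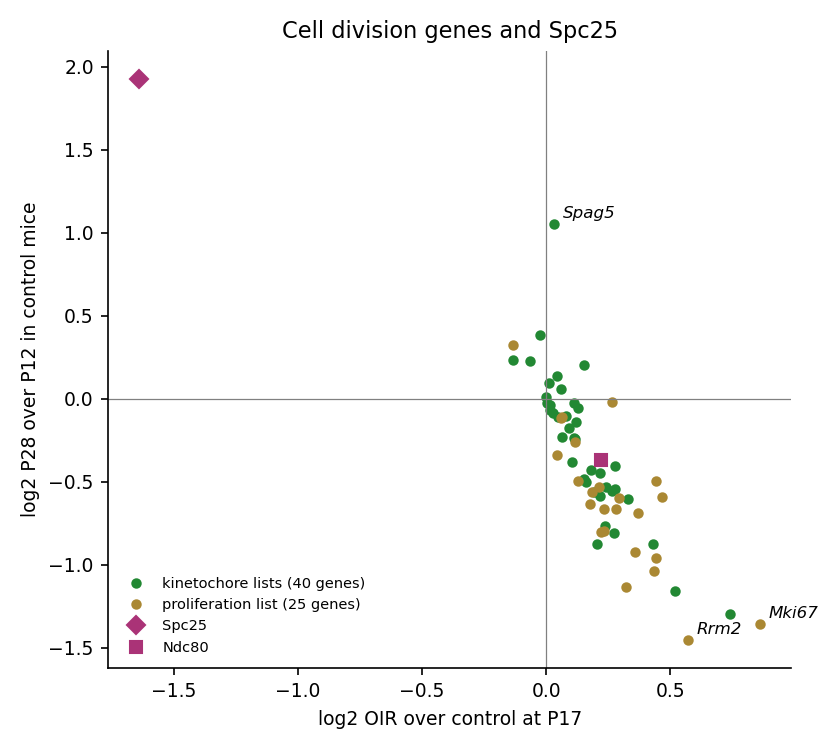
Each point is a gene of the kinetochore lists (40, green) or the proliferation list (25, ochre), with *Spc25* as a diamond and *Ndc80* as a square; the horizontal axis is the log2 difference of OIR over control on P17 and the vertical axis that of P28 over P12 in control mice. *Spc25* stands at -1.64 and 1.93, and *Spag5* at 0.03 and 1.05. *Ndc80* lies among the other division genes, at 0.22 and -0.37.

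The probes most like *Spc25* over the 77 arrays belonged to other functions. The highest Pearson correlations were those of *Cck*, the neuropeptide cholecystokinin (r = 0.93), *Emb*, a membrane glycoprotein (0.92), *Nptn*, neuroplastin (0.91), *Syt13*, a synaptotagmin (0.91), and *Nme1*, a nucleoside diphosphate kinase (0.91). On P17 *Cck* differed by -1.09 and *Nptn* by -0.46, and from P12 to P28 in control mice *Cck* rose by 1.92. These genes were picked by likeness to *Spc25* over arrays that include the P17 mice. Such values therefore follow in part from the choice and only describe it. After the group means had been removed, *Nptn* (0.83), *Kpna2*, an importin (0.80), *Txndc15* (0.80), *Got1*, an aminotransferase (0.80), and *Sdha*, a subunit of succinate dehydrogenase (0.80), were highest. Of 27808 probes with a symbol, 376 had an r above 0.8 over all arrays and 3 after the group means were removed. No correlation is given for the partners, whose retina signals were mostly below background. All of these points share the arrays, and with them slide and scan day.

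Genes beside *Spc25* were not called between OIR and control mice. The 3 nearest genes with a probe on either side in the RefSeq order, *4932414N04Rik*, *Cers6* and *Nostrin* on the one and *G6pc2*, *Abcb11* and *Dhrs9* on the other, differed by -0.03 to 0.05 on P17. From P12 to P28 in control mice *Abcb11* was called higher, by 0.08 (adjusted *p* = 0.0247 by limma), and its correlation with *Spc25* over the 77 arrays was 0.60, whereas the other 5 were not called in that comparison. Their probes were well above background in the retina on 0 to 30 of 77 arrays.

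Markers of retinal cells were set beside the P17 values. None of the 6 rod markers, 5 cone, 4 bipolar, 4 Mueller glia, 5 endothelial, 3 pericyte and 3 lens markers was called. Of all genes 2.29% were called on P17, and at that share lists this short mostly hold no called gene. The Mueller glia markers had a median difference of -0.39, with all 4 below 0. The amacrine markers ran from -0.86 to -0.36 with a median of -0.63, beside a *Spc25* difference of -1.64. The bipolar markers had a median of -0.30 (-0.43 to 0.19) and the ganglion cell markers one of -0.34 (-0.77 to 0.31), so both lists held either sign. Medians were 0.07 for rod, -0.04 for cone, 0.11 for endothelial and 0.04 for pericyte markers. They were 0.26 for microglial, -0.40 for pigment epithelium and -0.23 for lens markers. The glycine transporter *Slc6a9* of amacrine cells differed by -0.36 (1 of 3 amacrine markers called), the neurofilament *Nefl* of ganglion cells by -0.77 (1 of 4) and *Rpe65* of the pigment epithelium by -0.81 (1 of 3). The microglial genes *Csf1r* and *Aif1* were higher by 0.51 and 0.33 (2 of 4). The mean of the 4 microglial markers ran from -0.23 to 0.31 in OIR and from -0.41 to -0.15 in control mice, that of the 3 pigment epithelium markers from 0.06 to 0.52 and from 0.19 to 1.19. The amacrine mean ran from 1.67 to 2.72 and from 1.56 to 3.52, and the ganglion cell mean from 1.21 to 1.73 and from 1.06 to 2.38. On P12 none of these markers was called, and on P28 only *Csf1r*, by 0.41, beside 0.06% and 0.14% of all genes. *Best1* of the pigment epithelium was mostly below background. The part of these cells in the values of *Spc25* was not tested.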

How the data were processed

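RNA from the pooled retinas of each mouse was hybridized by the authors with universal mouse reference RNA on 2-color arrays. Per the file headers, the deposited scanner files hold intensity values of each spot (median signal, local background and processed signal of the Feature Extraction software, version 10.7.3.1). The deposited series table holds log2 values, equal within 0.001 to the log2 ratio of processed Cy3 over Cy5 for at least 99.3% of probes, with array medians of -0.127 to 0.0099; its normalization is not given further. Here, median signals were corrected with normexp (offset 50) and loess in limma 3.58.1 (R 4.3.3, data.table, version 1.17.8), outlier and control spots were left out, and spots of a probe were averaged. The offset shrinks ratios of dim probes. OIR and control mice of a day were fitted with lmFit and eBayes, and steps between days in 1 model of 6 groups. The P12 to P28 fits, the reference channel and the scan day block were added after seeing the data. The scripts were tested on simulated data. Depth is the number of mice and arrays, and no array was left out.

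The members, lists and tests were chosen with earlier results of these data known. Lists were the rest of the KMN network, inner and outer kinetochore, spindle checkpoint, chromosomal passenger complex, proliferation, and markers of rod, cone, bipolar, amacrine, ganglion and Mueller cells, endothelium, pericytes, microglia, pigment epithelium and lens; a gene stood with its brightest probe. Named genes were all member probes, up to 3 called genes with the largest change per list with *Mki67* and *Top2a*, the 5 probes with a symbol most correlated with *Spc25* before and after removal of group means, and 3 neighboring genes on each side; *Spag5*, *Zw10*, *Cenpc1* and *Pcna* were the called rises. Samples were grouped by the labels. Mouse numbers were all different, so no pairing was made.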

Additional observations from a re-analysis of the deposited data

How the results depend on the processing

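No partner probe was called between OIR and control mice on any day under any alternative that kept the probes; the alternative with only probes well above background held none of them. The *Spc25* difference on P17 ran from -1.87 (offset of 0) to -1.51 (retina channel alone), and its rise from P12 to P28 stayed called under every alternative, with adjusted *p* by limma of 0.00564 or less. With median centering in place of loess, the *Spc25* difference on P28 turned to 0.22 (not called), its step from P17 to P28 became 1.97 in control and 3.81 in OIR mice, and the change of the OIR effect from P17 to P28 became 1.84. *Ndc80* on P12 turned to -0.028 with slide and to -0.0025 with scan day as a block, and *Nuf2* on P28 to 0.018 in the retina channel alone, none of them called. From P17 to P28 in control mice, partner probes called rose from 0 to 1 without background subtraction and with the deposited values. They rose to 2 with median centering, which called 46360 of all probes. The totals of the former alternatives are not given here. From P12 to P28 in control mice they fell from 2 to 1 with an offset of 0, and to 0 in the retina channel alone, with slide and with scan day as a block; in OIR mice they fell from 2 to 0 with slide and with scan day as a block. The deposited values called 9 of the 65 division genes higher on P17, where the offset ratio called 0. The total of all probes called with the deposited values is not given here, so these 9 have no share beside them. The probes called on P17 ranged from 4 (median centering) to 1663 (retina channel alone) beside 631, those on P12 from 0 to 40 beside 13, and those on P28 from 8 to 165 beside 34. Between days the totals ranged from 1 to 1759 beside 714 (control, P12 to P17), 6889 to 46360 beside 7435 (control, P17 to P28), 55 to 4499 beside 1909 (OIR, P12 to P17), 9574 to 49886 beside 22599 (OIR, P17 to P28), 5925 to 39460 beside 13247 (control, P12 to P28) and 1933 to 50060 beside 20583 (OIR, P12 to P28), and those of the change of the OIR effect from 7 to 956 (P12 to P17) and from 0 to 540 (P17 to P28). With slide as a block, 0 division genes were called lower from P12 to P28 in OIR mice. The causes were not tested. No paired analysis was possible because the mouse numbers of the groups are all different; slide and scan day, which groups share, were used as blocks. Signal over background limits the partners, which were mostly at background in the retina.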
